A study of Danio rerio with 9 samples.

Results

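Integrins are the cell surface receptors that hold cells to the extracellular matrix. Each receptor is a dimer of an alpha and a beta subunit, and the alpha subunit largely sets which ligand is bound: laminin of basement membranes, fibrillar or basement membrane collagen, or fibronectin and other proteins with the RGD tripeptide. Inside the cell most beta subunits bind talin and kindlin, and through them the actin skeleton. The notochord sheath is an epithelium that rests on a matrix of its own making, so the subunits it transcribes describe how its cells are equipped to attach.

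The integrin genes were taken as all gene IDs whose symbol begins with itga or itgb in any case, without itgb1bp and itgbl names. The rule found 35 of 32266 gene IDs. Of these, itgb3bp encodes a centromere and nuclear receptor cofactor protein and is no subunit, which leaves 34 subunit genes, 22 alpha and 12 beta. The name table gives ITGB1 to 4 IDs, ITGB3 to 2 and ITGA11 to 2, so their IDs are printed, and whether near-identical copies shared reads was not traced. No subunit sequences were used here.

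The RNA came from notochord sheath cells of 13-day-old zebrafish larvae (strain EK). Cell sorting by reporter fluorescence yielded 3 populations, called col9a2+, entpd5a+ and, where both reporters were on, double-positive, with 3 libraries each. The design text calls the fish transgenic, while the genotype label of every sample reads wild type. The markers stand for the cartilage-like (col9a2, a collagen IX chain) and mineralizing (entpd5a, an ectonucleotidase needed for bone mineral) states of the sheath. The comparisons ask how the attachment receptors differ between those states and in cells that carry both reporters. Whether replicates are separate sorts, pools or animals is not in the labels, and the p values speak only of the spread between libraries. In sorted bulk samples fewer cells of a type and less RNA per cell cannot be told apart.

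Libraries held 39955994 to 81471212 counts. COL9A2 averaged 9561 ± 1920 CPM (counts scaled to library size) in col9a2+, 1272 ± 406 in double-positive and 189 ± 208 in entpd5a+ libraries (SD, n = 3), and ENTPD5 278 ± 163, 14030 ± 4230 and 4257 ± 1290. The notochord transcription factor gene tbxta ranged from 926 to 2146, 1388 to 4463 and 115 to 804 CPM, and noto had no count in any library. The list of 13 notochord markers that holds both summed to 5383 to 7176, 29950 to 47420 and 7177 to 14770 CPM in the same order of populations. The libraries entpd5a+ 2, entpd5a+ 3, col9a2+ 3 and double-positive 3, the 4 deepest, held 17950 to 27150 CPM of the heat-shock gene hsp70l, against 277 to 909 CPM in the other 5, the shallower ones. Library double-positive 1 also held 62.0 CPM of kdrl and 67.3 CPM of cdh5, which mark endothelium, against at most 7.53 and 1.95 CPM elsewhere. Depth and heat-shock state go together in these libraries, so their separate parts in the integrin results cannot be told apart. With depth group as a term, 14 of the 16 subunit calls described here stood and those of ITGB5 (entpd5a+ against col9a2+, edgeR adjusted p = 0.0594) and ITGA11 (entpd5a+ against double-positive, edgeR adjusted p = 0.0719) did not.

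Integrin subunits together took 0.0735% to 0.146% of the counts. Their summed level was 629, 996 and 942 CPM in the col9a2+ libraries, 1204, 1345 and 1611 CPM in double-positive and 787, 1319 and 954 CPM in entpd5a+. Of the 34 subunits, 18 averaged at least 10 CPM in some population and 25 at least 1 CPM. The other 9 stayed under 1 CPM in every population. Among the 25, the highest mean lay in col9a2+ for 6, in double-positive for 9 and in entpd5a+ for 10. The 18, the 25 and the 9 include itga2b, whose double-positive mean of 12.2 CPM came from 1 library (36.5, 0 and 0 CPM). The count filter passed 30 subunits into the tests and left out itga2.1, itga2b, itgam.1 and itgam.2.

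**Figure D1:**
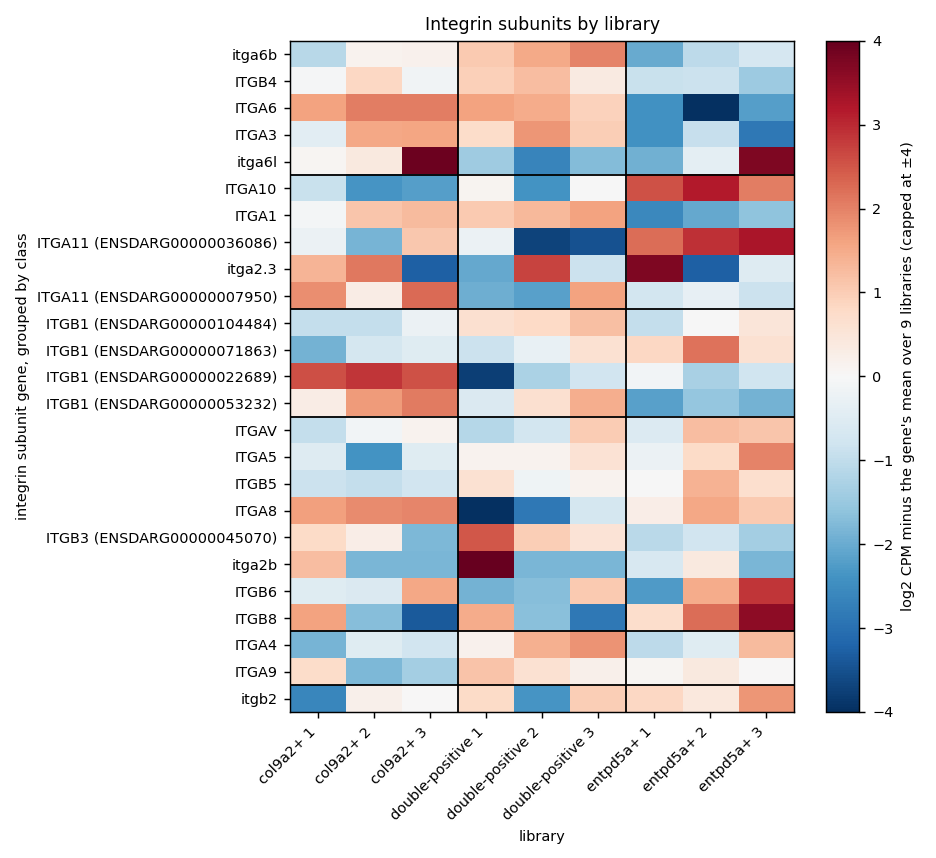
Integrin subunit genes (rows, grouped by class between the horizontal lines) in each of the 9 libraries (columns), as log2 CPM minus the gene's mean over the libraries, capped at 4 in either direction. Shown are the 25 genes averaging 1 CPM or more in some population. ITGA6 and ITGA1 are low in the 3 entpd5a+ libraries where ITGA10 is high, and ITGB1 (ENSDARG00000022689) is high in the 3 col9a2+ libraries.

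Laminin-binding subunits were low in entpd5a+ cells. Their summed level was 239, 474 and 348 CPM in the col9a2+ libraries, 646, 835 and 846 CPM in double-positive and 125, 167 and 160 CPM in entpd5a+, so the 3 populations did not overlap. Of the 6 genes tested, 4 fell in entpd5a+ against double-positive cells and 1 fell against col9a2+ cells, and none passed the test between double-positive and col9a2+ cells. Calls here and throughout are at a Benjamini-Hochberg adjusted p under 0.05 in edgeR's quasi-likelihood test over 19039 genes, two-sided. Over all of those genes 6.51%, 5.02% and 3.54% were called in these comparisons.

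The gene itga6b encodes an alpha subunit that pairs with beta1 or beta4 to bind laminin. Its level was 74.1, 174 and 178 CPM in the col9a2+ libraries, 327, 449 and 634 CPM in double-positive, and 38.8, 77.2 and 98.4 CPM in entpd5a+. Every double-positive library lay above all others, and the single-positive populations overlapped. Between entpd5a+ and double-positive cells it fell by 2.72 on the log2 scale (SE 0.51, edgeR adjusted p = 0.0133). The call was lost without entpd5a+ 2 (edgeR adjusted p = 0.0560, over all alternatives 5.34e-06 to 0.0599).

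Between double-positive and col9a2+ cells itga6b differed by 1.73 ± 0.49 (log2, SE), with an edgeR adjusted p of 0.0943. Same-numbered libraries of these populations deviated together, and number 3 is the deep library in both, so number and depth cannot be told apart. With replicate number as a block the difference was 1.79 with an edgeR adjusted p of 0.0121. In the blocked fit of the 6 libraries compared alone it was 1.75 with an edgeR adjusted p of 0.00403. Over all alternatives the adjusted p reached 0.280.

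ITGB4, the beta subunit of hemidesmosomes in skin, held 151, 276 and 143 CPM in the col9a2+ libraries, 304, 367 and 200 CPM in double-positive, and 84.5, 85.7 and 57.0 CPM in entpd5a+. The entpd5a+ libraries lay below all others, and the other two populations overlapped. It fell in entpd5a+ against double-positive cells by 1.94 on the log2 scale (SE 0.40, edgeR adjusted p = 0.0197). That call was lost without double-positive 2 (edgeR adjusted p = 0.0750), entpd5a+ 2 (0.0655) or entpd5a+ 3 (0.0597), within 5.44e-05 to 0.104 over all alternatives. Against col9a2+ cells the difference was -1.33 ± 0.39 (edgeR adjusted p = 0.0937), which passed under 3 of 17 alternatives (0.00995 to 0.361).

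ITGA6, the second gene of the same alpha subunit, was low in entpd5a+ cells. The col9a2+ libraries had 11.9, 16.4 and 16.2 CPM and the double-positive libraries 12.1, 10.99 and 7.38 CPM. The entpd5a+ libraries had 0.698, 0.0809 and 0.819 CPM, from 31, 7 and 54 counts. No entpd5a+ library came near another population. ITGA6 fell in entpd5a+ by 4.81 on the log2 scale against col9a2+ (SE 0.77, edgeR adjusted p = 0.00802) and by 4.26 against double-positive cells (SE 0.75, edgeR adjusted p = 0.0112). Both calls held whichever of the 9 libraries was left out (edgeR adjusted p up to 0.0343 against col9a2+). In the 5 shallower libraries alone, which hold 1 entpd5a+ library, the call against col9a2+ was lost at a difference of -4.34. Between double-positive and col9a2+ cells the difference was -0.55 ± 0.65, with a 95% interval from -2.01 to 0.91.

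ITGA3, another laminin receptor alpha subunit, had 1.82, 7.15 and 7.27 CPM in the col9a2+ libraries, 4.07, 8.32 and 4.86 CPM in double-positive, and 0.428, 1.27 and 0.303 CPM in entpd5a+. All entpd5a+ libraries were below the rest. It fell against double-positive cells by 3.10 on the log2 scale (SE 0.80, edgeR adjusted p = 0.0486), close to the threshold. The call was lost without any 1 of 8 libraries, all but col9a2+ 1 (edgeR adjusted p from 0.0524 to 0.160, over all alternatives 0.000942 to 0.222), and the difference was -3.97 without entpd5a+ 2. Against col9a2+ cells it was -3.01 ± 0.79 (edgeR adjusted p = 0.0632), and -3.88 without entpd5a+ 2. That difference passed under 2 of 16 alternatives (0.0011 to 0.337). The remaining laminin-binding genes were scarce, and against double-positive cells they ran the other way. The gene itga6l reached 3.18 CPM in col9a2+ 3 and 2.79 CPM in entpd5a+ 3 and at most 0.248 CPM elsewhere. The highest level of itga3a was 2.16 CPM, in entpd5a+ 2. In entpd5a+ against double-positive cells itga6l differed by 5.16 ± 2.1 (edgeR adjusted p = 0.202) and itga3a by 3.81 ± 1.5 (edgeR adjusted p = 0.185). Both were uncalled, and DESeq2 called itga3a there.

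Markers of epidermis, which also carries these subunits, had a lower sum in entpd5a+ libraries. The 10 markers summed to 8716 to 11330 CPM in col9a2+, 8518 to 11730 CPM in double-positive and 2560 to 7895 CPM in entpd5a+ libraries, with no marker at 0 throughout a population. In entpd5a+ against double-positive cells 2 of the 10 rose and 1 fell, with a median of 2.24 where the laminin-binding subunits had -2.33. In entpd5a+ against col9a2+ cells 1 fell, with a median of -0.99 where the laminin-binding subunits had -1.16. In double-positive against col9a2+ cells 1 rose and 4 fell, with a median of -2.67 where the laminin-binding subunits had -0.23. Over all genes 6.51%, 5.02% and 3.54% were called in those comparisons, in that order. The sum was made mostly of the keratins krt4 and krt5, while TP63, the master regulator of basal epidermis, had 7.82 to 33.0, 0.716 to 12.3 and 7.54 to 35.6 CPM. Their part in the integrin differences was not tested.

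Collagen-binding alpha subunits exchanged places between populations: ITGA10 and 1 copy of ITGA11 were high in entpd5a+ cells and ITGA1 was low there. Of 6 genes tested, 2 rose and 1 fell in entpd5a+ against double-positive cells, where 6.51% of all genes were called. In entpd5a+ against col9a2+ cells 1 rose and 1 fell (5.02% of all genes called). None passed between double-positive and col9a2+ cells (3.54%). The members that moved did not all move in the same direction.

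ITGA10, known in mammals as a collagen II receptor of chondrocytes, had 35.8, 13.0 and 14.4 CPM in the col9a2+ libraries and 72.7, 12.7 and 66.1 CPM in the double-positive libraries. The entpd5a+ libraries had 391, 600 and 275 CPM. Every entpd5a+ library exceeded every other library. In entpd5a+ cells ITGA10 rose by 4.33 ± 0.73 (log2, SE; edgeR adjusted p = 0.0101) against col9a2+, a 20.0-fold difference. Against double-positive cells it rose by 3.06 ± 0.69 (edgeR adjusted p = 0.0297).

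The ITGA10 call against col9a2+ cells was lost without col9a2+ 2 (edgeR adjusted p = 0.0585, over all alternatives 8.76e-09 to 0.203), and the difference was 4.94 without col9a2+ 1. The call against double-positive cells was lost without any 1 double-positive library or without entpd5a+ 2 (edgeR adjusted p from 0.0527 to 0.0862, over all alternatives 7.95e-05 to 0.224). Within the shallower libraries, where entpd5a+ has 1 library, the differences were 4.18 and 3.69. Within the deeper ones, where col9a2+ and double-positive have 1 library each, they were 4.81 and 2.62.

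ITGA1, the alpha subunit that prefers basement membrane collagen IV, showed the opposite order. Its level was 69.8, 156 and 175 CPM in the col9a2+ libraries, 149, 178 and 222 CPM in double-positive, and 12.2, 17.7 and 24.0 CPM in entpd5a+. The entpd5a+ libraries were lowest without overlap, and the col9a2+ and double-positive ranges overlapped. ITGA1 fell in entpd5a+ by 2.90 on the log2 scale against col9a2+ (SE 0.43, edgeR adjusted p = 0.00633) and by 3.35 against double-positive cells (SE 0.44, edgeR adjusted p = 0.00394). Both calls held without any 1 library (edgeR adjusted p up to 0.0347 against col9a2+). In the 5 shallower libraries alone, which hold 1 entpd5a+ library, the call against col9a2+ was lost at a difference of -3.21.

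ITGA11 (ENSDARG00000036086), a receptor for fibrillar collagen I on mammalian fibroblasts, had 6.10, 1.94 and 15.2 CPM in the col9a2+ libraries, 6.06, 0.520 and 0.604 CPM in double-positive, and 33.4, 53.8 and 68.3 CPM in entpd5a+. Each entpd5a+ library was above all others. It rose in entpd5a+ against double-positive cells by 4.44 ± 1.09 (log2, SE; edgeR adjusted p = 0.0406). The call was lost without col9a2+ 1, double-positive 2 or 3, or entpd5a+ 2 or 3 (edgeR adjusted p from 0.0619 to 0.112, over all alternatives 6.04e-05 to 0.316), and without double-positive 1 the difference was 6.51. Against col9a2+ cells it was 2.74 ± 1.00 (edgeR adjusted p = 0.182, over all alternatives 0.0382 in DESeq2 to 0.446), and 3.69 without col9a2+ 3. The other ITGA11 copy (ENSDARG00000007950) and the alpha2 genes ITGA2, itga2.1 and itga2.3 reached at most 1.83, 1.08, 0.278 and 4.32 CPM in any library.

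Tendon and fibroblast markers were highest in the same population as ITGA10 and ITGA11. The 11 markers summed to 657 to 867 CPM in col9a2+, 106 to 280 CPM in double-positive and 1362 to 1966 CPM in entpd5a+ libraries, with scxb the nearest to absence at 0 to 2.73 CPM. Against double-positive cells 8 of the 11 rose in entpd5a+ and none fell, and against col9a2+ cells 3 rose and 1 fell. Called shares of all genes were 6.51% and 5.02% in those comparisons. In double-positive against col9a2+ cells, where 3.54% of all genes were called, none rose and 3 fell, with a list median of -1.67. The uncalled ITGA10 difference there was 1.26 ± 0.65 (edgeR adjusted p = 0.388). That of ITGA11 (ENSDARG00000036086), also uncalled, was -1.70 ± 0.98 (edgeR adjusted p = 0.452). TNMD, the tendon gene tenomodulin, had 39.5 to 152, 43.1 to 127 and 535 to 1145 CPM. Bone markers, 13 genes, were also highest in entpd5a+ but lowest in col9a2+ libraries, at 1333 to 3842, 21260 to 29600 and 55610 to 94170 CPM. That sum includes ENTPD5, whose reporter defined the sort and which averaged 278, 14030 and 4257 CPM in the same order. The part of either list in the integrin differences was not tested.

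**Figure D2:**
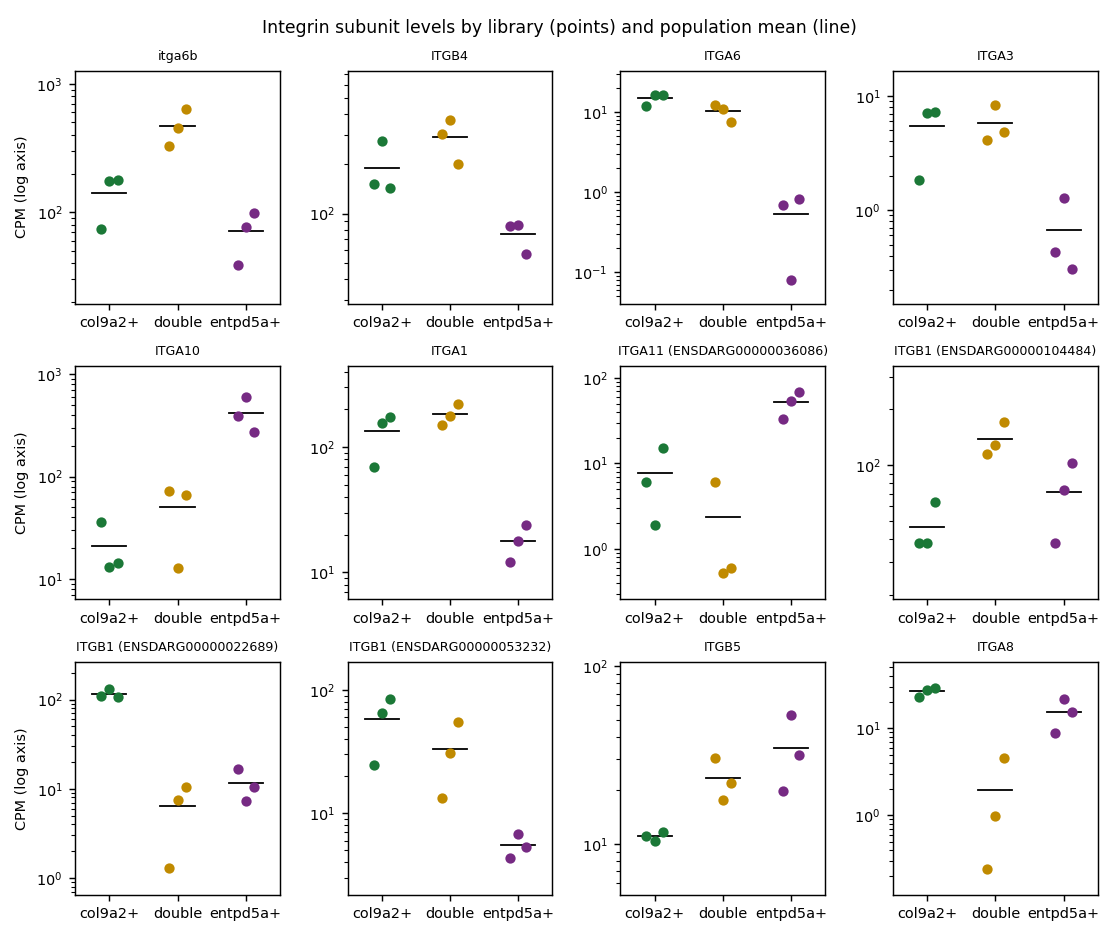
Level of 12 integrin subunit genes in CPM on log axes, each with its own range, with a point for each library and a line at the population mean ("double" is double-positive, n = 3 libraries a population). ITGA1 and ITGA6 lie lowest in entpd5a+ libraries, ITGA10 and ITGA11 (ENSDARG00000036086) lie highest there, and ITGA8 lies lowest in double-positive libraries.

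The beta1 subunit, the common partner of most alpha subunits named here, is given by 4 gene IDs, and these differed in where they were high. Their sum overlapped between the populations, at 184 to 286 CPM in col9a2+, 154 to 303 CPM in double-positive and 137 to 283 CPM in entpd5a+ libraries. Of the 4, 2 fell in entpd5a+ against col9a2+ cells, 1 fell in double-positive against col9a2+ cells and 1 fell in entpd5a+ against double-positive cells. The shares of all genes called as falling were 2.34%, 1.86% and 3.45%, in that order. In the fit of 9 libraries no beta1 copy passed the test in the upward direction.

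ITGB1 (ENSDARG00000022689) was high in col9a2+ cells. The col9a2+ libraries had 109, 133 and 107 CPM, the double-positive libraries 1.30, 7.51 and 10.6 CPM, and the entpd5a+ libraries 16.9, 7.39 and 10.5 CPM. All col9a2+ libraries lay far above the other 6, which overlapped. It fell by 4.17 on the log2 scale in double-positive (SE 0.69, edgeR adjusted p = 0.0115) and by 3.33 in entpd5a+ cells (SE 0.66, edgeR adjusted p = 0.0203), both against col9a2+. The double-positive call held whichever library was left out and was lost in the 5 shallower libraries alone (edgeR adjusted p = 0.0612, over all alternatives 4.28e-09 to 0.0612). The entpd5a+ call was lost without col9a2+ 1 (edgeR adjusted p = 0.0531), col9a2+ 2 (0.0743), entpd5a+ 2 (0.0914) or entpd5a+ 3 (0.0652), within 8.94e-06 to 0.344 over all alternatives.

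ITGB1 (ENSDARG00000053232) had 24.7, 64.7 and 84.8 CPM in the col9a2+ libraries, 13.3, 30.9 and 55.0 CPM in double-positive, and 4.37, 6.82 and 5.37 CPM in entpd5a+. The entpd5a+ libraries lay below all others, and the col9a2+ and double-positive ranges overlapped. In entpd5a+ it fell by 3.39 on the log2 scale against col9a2+ (SE 0.61, edgeR adjusted p = 0.0125) and by 2.58 against double-positive cells (SE 0.59, edgeR adjusted p = 0.0302). The former call was lost without entpd5a+ 2 (edgeR adjusted p = 0.0507, over all alternatives 7.83e-07 to 0.151). The latter was lost without col9a2+ 2, double-positive 2 or 3, or any 1 entpd5a+ library (edgeR adjusted p from 0.0528 to 0.0879, over all alternatives 0.000583 to 0.219). Between double-positive and col9a2+ cells the difference was -0.81 ± 0.56 (edgeR adjusted p = 0.561), and -0.89 with an edgeR adjusted p of 0.0171 in the blocked fit of the 6 libraries compared (over all alternatives 0.0171 to 0.813).

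ITGB1 (ENSDARG00000104484) had 37.8, 38.2 and 63.5 CPM in the col9a2+ libraries, 115, 128 and 171 CPM in double-positive, and 38.1, 73.6 and 103 CPM in entpd5a+. The double-positive libraries stood above the others without overlap. Against col9a2+ cells the difference was 1.57 ± 0.41 with an edgeR adjusted p of 0.0712, and 1.59 with an edgeR adjusted p of 0.0165 with the replicate block (over all alternatives 0.00274 to 0.246). The last copy, ITGB1 (ENSDARG00000071863), had 11.7, 26.6 and 31.2 CPM in col9a2+, 24.0, 35.1 and 66.4 CPM in double-positive, and 77.5, 195 and 66.8 CPM in entpd5a+ libraries. Its entpd5a+ libraries were the highest, and the difference from col9a2+ cells was 2.29 ± 0.57 with an edgeR adjusted p of 0.0506, just above the threshold. It passed under 6 of 17 alternatives: all genes kept, a stricter mean of 10 CPM, DESeq2, without double-positive 3, with the replicate block and with a depth term (edgeR and DESeq2 adjusted p from 0.00201 to 0.176 over all 17). Without entpd5a+ 2 it was 1.64.

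Among subunits that bind fibronectin and other RGD proteins, 2 differences passed the test. Their summed level was 74.4, 73.6 and 88.2 CPM in the col9a2+ libraries, 141, 68.6 and 117 CPM in double-positive, and 65.0, 175 and 194 CPM in entpd5a+, with overlap between all populations. The 141 CPM of double-positive 1 include 36.5 CPM of itga2b. Of 8 genes tested, ITGB5 rose in entpd5a+ and ITGA8 fell in double-positive cells, both against col9a2+, and none passed between entpd5a+ and double-positive cells. Called shares of all genes were 5.02%, 3.54% and 6.51% in those comparisons.

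ITGB5, a partner of the alpha V subunit in a vitronectin receptor, had 11.04, 10.4 and 11.7 CPM in the col9a2+ libraries, 30.4, 17.7 and 21.99 CPM in double-positive, and 19.7, 52.8 and 31.8 CPM in entpd5a+. The col9a2+ libraries were the lowest and almost equal. ITGB5 rose in entpd5a+ against col9a2+ cells by 1.66 ± 0.40 (log2, SE; edgeR adjusted p = 0.0443). The call was lost without any 1 col9a2+ library, double-positive 2 or 3, or entpd5a+ 2 or 3 (edgeR adjusted p from 0.0603 to 0.183, over all alternatives 0.00338 to 0.526). Between double-positive and col9a2+ cells the difference was 1.08 ± 0.39 (edgeR adjusted p = 0.196).

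ITGA8, an RGD receptor subunit known in mammals for binding nephronectin in the kidney, had 23.1, 27.5 and 29.1 CPM in the col9a2+ libraries. The double-positive libraries had 0.246, 0.988 and 4.60 CPM and the entpd5a+ libraries 8.91, 21.7 and 15.4 CPM. The double-positive libraries were below all others, and the entpd5a+ libraries lay between without overlap. It fell in double-positive against col9a2+ cells by 3.76 on the log2 scale (SE 0.88, edgeR adjusted p = 0.0483).

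The ITGA8 call was lost without any 1 col9a2+ library, double-positive 1 or 2, or entpd5a+ 2 or 3 (edgeR adjusted p from 0.0531 to 0.151, over all alternatives 8.44e-05 to 0.151), and the difference was -5.43 without double-positive 3. Between entpd5a+ and double-positive cells it was 2.97 ± 0.85 (edgeR adjusted p = 0.0736), and 4.64 without double-positive 3 (edgeR adjusted p = 0.0102). That difference passed under 5 of 17 alternatives (0.00257 to 0.225). Between entpd5a+ and col9a2+ cells it was -0.79 ± 0.79 (edgeR adjusted p = 0.720).

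ITGAV, the alpha V subunit, had 12.4, 22.1 and 26.3 CPM in col9a2+, 10.9, 14.6 and 49.1 CPM in double-positive, and 16.4, 56.8 and 52.5 CPM in entpd5a+ libraries. The populations overlapped, and no comparison passed. ITGA5, whose dimer with beta1 is the classical fibronectin receptor and shapes somite boundaries in zebrafish, had 12.9, 3.45 and 13.1 CPM in col9a2+, 20.1, 20.3 and 27.0 CPM in double-positive, and 15.6, 31.2 and 73.3 CPM in entpd5a+ libraries. The col9a2+ libraries were lowest without overlap, and the difference between entpd5a+ and col9a2+ cells was 2.03 ± 0.63 with an edgeR adjusted p of 0.111 (over all alternatives 0.0237 to 0.678), and 1.22 without entpd5a+ 3. It passed in DESeq2 and without entpd5a+ 1.

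ITGB3 (ENSDARG00000045070), a beta subunit shared by vitronectin and fibrinogen receptors, had 12.4, 8.69 and 2.08 CPM in col9a2+, 41.3, 14.4 and 10.6 CPM in double-positive, and 3.40, 4.25 and 2.84 CPM in entpd5a+ libraries. Its entpd5a+ libraries lay below the double-positive ones, and the difference was -2.66 ± 0.71 (edgeR adjusted p = 0.0574), which passed under 6 of 17 alternatives (0.00346 to 0.180) and was -1.84 without double-positive 1. Between double-positive and col9a2+ cells it was 1.52 ± 0.69 (edgeR adjusted p = 0.312), and 1.58 with an edgeR adjusted p of 0.0477 in the blocked fit of those 6 libraries (over all alternatives 0.0477 to 0.719). Without double-positive 1 it was 0.70. ITGB6 reached 13.5 CPM in entpd5a+ 3, ITGB8 reached 4.20 CPM in the same library, and the other ITGB3 copy (ENSDARG00000056767) reached 0.624 CPM.

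The thrombocyte subunit gene itga2b came from a single library. Double-positive 1 had 1634 counts (36.5 CPM), while col9a2+ 1, entpd5a+ 1 and entpd5a+ 2 had 12, 2 and 11 counts. The other 5 libraries had 0 counts, which allows at most 0.0343 to 0.0780 CPM (3 counts of the library, counting error only). In double-positive 1 the thrombocyte markers mpl and GP1BB were at 7.25 and 10.9 CPM, against at most 0.383 and 0.707 CPM elsewhere. The other 2 markers of that list did not stand out there: NFE2 was at 4.99 CPM, against 32.5 CPM in entpd5a+ 3, and gp9 at 0.537 CPM, against 0.592 CPM. The list of 4 summed to 23.6 CPM in double-positive 1, to 33.4 CPM in entpd5a+ 3, where itga2b had no count, and to at most 8.08 CPM elsewhere. Double-positive 1 is also the library with the most endothelial transcripts. The 17 endothelial markers summed to 471 CPM there, against 78.1 to 195 CPM elsewhere. ITGB3 (ENSDARG00000045070), the partner of itga2b on thrombocytes, had its highest value in double-positive 1.

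ITGA4, which binds fibronectin and the vascular adhesion molecule VCAM, had 3.43, 9.01 and 7.43 CPM in col9a2+, 14.4, 33.9 and 43.6 CPM in double-positive, and 6.10, 9.07 and 30.5 CPM in entpd5a+ libraries. Double-positive libraries were above col9a2+ libraries without overlap. That difference was 2.21 ± 0.68 with an edgeR adjusted p of 0.124, and 2.14 with an edgeR adjusted p of 0.024 with the replicate block (over all alternatives 0.00458 to 0.341). ITGA9, a receptor subunit for tenascin and related proteins, ranged from 2.23 to 17.3 CPM, overlapped between populations and passed no test.

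Leukocyte subunits were scarce, and their summed level was highest in the entpd5a+ libraries, without overlap. The 6 genes together summed to 0.963 to 2.04 CPM in col9a2+, 1.12 to 3.27 CPM in double-positive and 3.44 to 6.72 CPM in entpd5a+ libraries. The common leukocyte beta subunit gene itgb2 had 0.128, 1.09 and 0.961 CPM in col9a2+, 1.63, 0.156 and 1.93 CPM in double-positive, and 1.71, 1.28 and 3.31 CPM in entpd5a+ libraries. None of the 4 leukocyte genes tested passed in any comparison, and itgae.1, itgae.2, itgam.1, itgam.2 and itgb7 reached at most 1.25 CPM. The 19 leukocyte markers summed to 40.2 to 45.1, 26.3 to 75.8 and 37.6 to 99.9 CPM. The symbol match itgb3bp averaged 1.42, 0.828 and 0.311 CPM in the 3 populations and was not called.

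Counted by comparison, 6 of the 30 subunits tested passed between entpd5a+ and col9a2+ cells, 2 rising and 4 falling. Of all genes 5.02% passed, 2.68% rising and 2.34% falling, and 11 subunits had an unadjusted p under 0.05, against 16.8% of all genes. Libraries did not overlap for 14 of the 30, against 24.7% of all genes. The median difference was 0.64 on the log2 scale, against 0.02 over all genes. It weighs every tested subunit alike, including those under 1 CPM in every population. The calls fell on ITGA10 and ITGB5 upward and on ITGA1, ITGA6 and the ITGB1 copies ENSDARG00000022689 and ENSDARG00000053232 downward.

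Between double-positive and col9a2+ cells 2 of the 30 passed, both falling (ITGB1 ENSDARG00000022689 and ITGA8), where 3.54% of all genes passed, 1.68% rising and 1.86% falling, a share near that of the subunits. Libraries did not overlap for 8 subunits, against 24.4% of all genes, and the median difference was 0.19 against 0.01. At an unadjusted p under 0.05 there were 7 subunits, where 16.2% of all genes lay under it. With replicate number as a block 5 subunits passed, and 7 in the blocked fit of these 6 libraries alone, where all genes passing numbered 1024 and 2228 in place of 674.

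Between entpd5a+ and double-positive cells 8 of the 30 passed, 2 rising and 6 falling. Of all genes 6.51% passed, 3.06% rising and 3.45% falling, and 15 subunits had an unadjusted p under 0.05, against 20.7% of all genes. Libraries did not overlap for 13, against 26.1% of all genes. The median difference was 0.80, against 0.07 over all genes, although the calls were mostly downward. This median too weighs every tested subunit alike, including those under 1 CPM in every population. Without entpd5a+ 2 the 8 calls became 2, ITGA1 and ITGA6. Over the 3 comparisons 16 of 90 gene and comparison pairs were called, on 11 genes, 7 alpha and 4 beta.

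**Figure D3:**
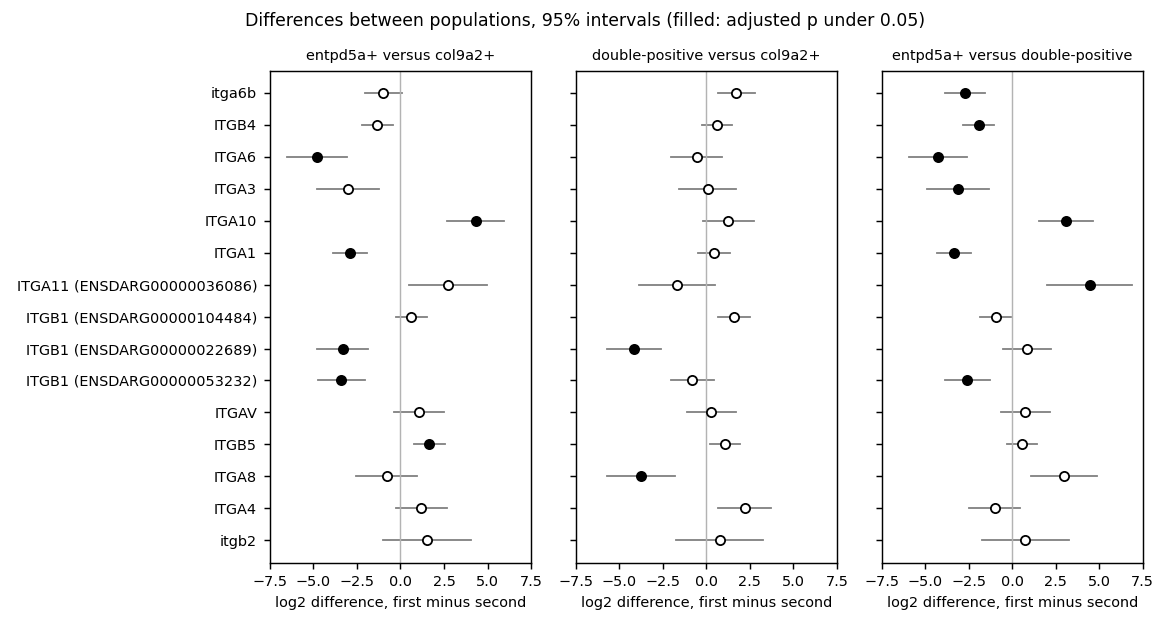
Log2 differences of 15 integrin subunit genes (rows) in the 3 comparisons (panels), first population minus second. The 95% intervals were calculated back from the F tests of the edgeR fit of 9 libraries. Filled points have an adjusted p under 0.05: 6 against col9a2+ cells and 8 against double-positive cells in entpd5a+, and 2 in double-positive against col9a2+ cells.

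Ligands of these receptors were counted from lists of their genes. Over all genes, 5.02% were called in entpd5a+ against col9a2+, 3.54% in double-positive against col9a2+ and 6.51% in entpd5a+ against double-positive cells. These shares are the background for the ligand, adhesion complex and marker lists alike. Among 14 laminin and nephronectin genes, 1 fell in entpd5a+ against col9a2+ cells, 2 rose in double-positive against col9a2+ cells and 2 fell in entpd5a+ against double-positive cells. LAMA5, a laminin alpha chain, had 39.6, 51.2 and 61.2 CPM in col9a2+, 150, 149 and 126 CPM in double-positive, and 13.6, 13.8 and 8.42 CPM in entpd5a+ libraries, 3 ranges that did not overlap. It fell in entpd5a+ by 3.57 on the log2 scale against double-positive (SE 0.33, edgeR adjusted p = 0.00248) and by 2.09 against col9a2+ cells (SE 0.31, edgeR adjusted p = 0.00605). Its rise in double-positive over col9a2+ cells, 1.48 ± 0.31 (edgeR adjusted p = 0.0281), was lost without any 1 col9a2+ library or double-positive 1 or 2 (edgeR adjusted p up to 0.139, over all alternatives 0.000458 to 0.139).

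LAMB2, a laminin beta chain, had 15.0, 23.0 and 19.3 CPM in col9a2+, 221, 263 and 378 CPM in double-positive, and 22.8, 30.9 and 25.1 CPM in entpd5a+ libraries. Only the double-positive libraries were high. Against both neighbours the difference passed whichever library was left out: 3.91 ± 0.36 over col9a2+ (edgeR adjusted p = 0.00149), and -3.45 ± 0.35 in entpd5a+ against double-positive cells (edgeR adjusted p = 0.00293). The double-positive libraries are also those with the most itga6b, as described above.

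Among 16 collagen ligand genes, 3 rose and 6 fell in entpd5a+ against col9a2+ cells, 2 fell in double-positive against col9a2+ cells, and 4 rose and 2 fell in entpd5a+ against double-positive cells. The list includes COL9A2, whose reporter defined the sort. Its own fall in entpd5a+ against col9a2+ cells (-5.66, edgeR adjusted p = 0.00729) is among the 6. The basement membrane collagen genes col4a5 and col4a6 were low where ITGA1 was low. They were the 2 genes of the list that fell against double-positive cells, so no other collagen IV gene was called as falling there. The level of col4a5 was 97.0, 141 and 119 CPM in col9a2+, 86.9, 98.4 and 101 CPM in double-positive, and 20.2, 15.1 and 12.9 CPM in entpd5a+ libraries. It fell in entpd5a+ by 2.89 on the log2 scale against col9a2+ (SE 0.30, edgeR adjusted p = 0.00177) and by 2.57 against double-positive cells (SE 0.30, edgeR adjusted p = 0.00326). For col4a6 the differences were -3.47 and -3.00 (edgeR adjusted p = 0.00177 and 0.00294). All 4 calls held without any 1 library.

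Among fibrillar collagens the direction differed by type. The more abundant collagen II copy, COL2A1 (ENSDARG00000069093), was highest in col9a2+ libraries, at 28710, 35300 and 50500 CPM, with 1706, 3318 and 5141 CPM in double-positive and 1143, 188 and 82.3 CPM in entpd5a+. It fell in entpd5a+ against col9a2+ cells by 6.34 on the log2 scale (SE 1.12, edgeR adjusted p = 0.0121). The collagen V gene col5a2b had 83.4, 26.9 and 56.3 CPM in col9a2+, 429, 121 and 303 CPM in double-positive, and 2746, 3891 and 1490 CPM in entpd5a+ libraries, without overlap. It rose in entpd5a+ against col9a2+ cells by 5.61 ± 0.73 (edgeR adjusted p = 0.00401), and COL5A1 rose against double-positive cells by 3.36 ± 0.62 (edgeR adjusted p = 0.0127). In double-positive against col9a2+ cells, COL2A1 (ENSDARG00000011407), the other copy, fell by 4.21 on the log2 scale (SE 0.71, edgeR adjusted p = 0.0126) and by 4.87 without double-positive 3. COL9A1 fell by 6.997 (SE 1.60, edgeR adjusted p = 0.0440) and by 9.55 without double-positive 1. Its call was lost without any 1 col9a2+ library, double-positive 2 or 3, or entpd5a+ 2 (edgeR adjusted p up to 0.131, over all alternatives 0.00417 to 0.131).

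Among 33 genes of fibronectin and other RGD or tenascin ligands, 4 rose in entpd5a+ against col9a2+ cells. In double-positive against col9a2+ cells 1 rose and 3 fell, and in entpd5a+ against double-positive cells 7 rose and 1 fell. FN1 (ENSDARG00000006526), 1 copy of fibronectin, had 931, 342 and 300 CPM in col9a2+, 8666, 6773 and 6301 CPM in double-positive, and 453, 597 and 832 CPM in entpd5a+ libraries. It stood far above the rest in the double-positive libraries, by 3.79 ± 0.60 over col9a2+ (edgeR adjusted p = 0.0102, 4.49 without col9a2+ 1). In entpd5a+ against double-positive cells it fell by 3.53 on the log2 scale (SE 0.59, edgeR adjusted p = 0.00915). This copy was the 1 gene of the list that rose and the 1 that fell in these respective comparisons. No other FN1 ID was called in those directions.

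The thrombospondin gene thbs2b had 3.85, 2.78 and 6.92 CPM in col9a2+, 1.03, 3.12 and 1.33 CPM in double-positive, and 67.5, 45.4 and 34.1 CPM in entpd5a+ libraries. It rose in entpd5a+ by 3.44 ± 0.56 against col9a2+ (edgeR adjusted p = 0.00838) and by 4.75 ± 0.59 against double-positive cells (edgeR adjusted p = 0.00349, 5.38 without double-positive 2). The osteopontin gene spp1, an RGD ligand of bone, rose in entpd5a+ against col9a2+ cells by 5.17 ± 0.89 (edgeR adjusted p = 0.0108, 5.89 without col9a2+ 1).

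The elastic fibre gene fbln5 rose in entpd5a+ by 2.60 ± 0.53 against col9a2+ (edgeR adjusted p = 0.0229) and by 3.19 ± 0.55 against double-positive cells (edgeR adjusted p = 0.0102). The former call was lost without any 1 col9a2+ library or entpd5a+ 1 or 2 (edgeR adjusted p up to 0.0927). THBS3 (ENSDARG00000012060), a copy of that gene, fell in double-positive against col9a2+ cells by 4.34 on the log2 scale (SE 0.82, edgeR adjusted p = 0.0195) and by 6.11 without double-positive 3. In the same comparison emilin1b fell by 5.03 (SE 0.99, edgeR adjusted p = 0.0234) and by 6.56 without double-positive 2. These calls were lost without col9a2+ 1 or double-positive 1, the THBS3 call also without col9a2+ 2 and the emilin1b call also without col9a2+ 3 (edgeR adjusted p up to 0.0619 and 0.0818). The emilin1b call was also lost in the blocked fit of the 6 libraries (edgeR adjusted p = 0.0727), in those 6 libraries without the block (0.0506) and in the 5 shallower libraries (0.106), within 2.26e-07 to 0.106 over all alternatives.

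The adhesion complex that joins integrins to actin was counted over 41 genes. In double-positive against col9a2+ cells 5 rose and none fell, and the median difference of the list was 0.84 against 0.01 over all genes. In entpd5a+ against double-positive cells 1 rose and 7 fell, with a median of -0.42 against 0.07. In entpd5a+ against col9a2+ cells 3 rose and 1 fell, with a median of 0.51 against 0.02.

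The gene lims1, whose product PINCH joins integrin-linked kinase to the complex, had 108, 122 and 118 CPM in col9a2+, 458, 496 and 459 CPM in double-positive, and 156, 216 and 221 CPM in entpd5a+ libraries. The 3 populations did not overlap, and it rose in double-positive against col9a2+ cells by 2.02 ± 0.31 (edgeR adjusted p = 0.00881). The call was lost without col9a2+ 1 (edgeR adjusted p = 0.0543, over all alternatives 1.02e-12 to 0.0543).

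PXN (ENSDARG00000088590), a copy of the gene for the scaffold paxillin, had 51.5, 87.2 and 68.1 CPM in col9a2+, 235, 320 and 305 CPM in double-positive, and 39.4, 60.0 and 97.8 CPM in entpd5a+ libraries. It was high in the double-positive libraries only, by 2.06 ± 0.40 over col9a2+ (edgeR adjusted p = 0.0217), and fell in entpd5a+ against double-positive cells by 2.13 on the log2 scale (SE 0.40, edgeR adjusted p = 0.0140). The former call was lost without any 1 col9a2+ library or double-positive 2 (edgeR adjusted p up to 0.118), the latter without double-positive 2 or entpd5a+ 2 (edgeR adjusted p up to 0.0637). TNS1, the actin-binding protein tensin, rose in double-positive over col9a2+ cells by 2.60 ± 0.53 (edgeR adjusted p = 0.0269), a call lost without col9a2+ 1 or 2 or double-positive 2 or 3 (edgeR adjusted p up to 0.126).

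CD151 (ENSDARG00000038288), a tetraspanin that in mammals associates with laminin-binding integrins, was high in entpd5a+ cells, where the summed laminin-binding subunits were low. Its level was 8.37, 9.14 and 4.29 CPM in col9a2+, 10.7, 9.41 and 6.34 CPM in double-positive, and 51.8, 42.6 and 51.3 CPM in entpd5a+ libraries. It rose in entpd5a+ by 2.74 ± 0.39 against col9a2+ (edgeR adjusted p = 0.00493) and by 2.46 ± 0.38 against double-positive cells (edgeR adjusted p = 0.00669), and both calls held without any 1 library. The other CD151 copy (ENSDARG00000068629) had 45.6 to 108, 58.6 to 110 and 56.4 to 79.3 CPM in the 3 populations, which overlapped.

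The talin gene TLN2 fell in entpd5a+ by 2.24 on the log2 scale against col9a2+ (SE 0.48, edgeR adjusted p = 0.0275) and by 2.38 against double-positive cells (SE 0.48, edgeR adjusted p = 0.0184). The former call was lost without col9a2+ 1 or 2 or entpd5a+ 2 or 3 (edgeR adjusted p up to 0.123), the latter without double-positive 2 or entpd5a+ 2 or 3 (edgeR adjusted p up to 0.0805). The tensin gene tns2a rose in entpd5a+ against col9a2+ cells by 2.29 ± 0.43 (edgeR adjusted p = 0.0151), a call lost without col9a2+ 1 or 2 or entpd5a+ 2 (edgeR adjusted p up to 0.0816).

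In the 5 shallower libraries alone, which hold 1 entpd5a+ library, calls of LAMA5, col5a2b, thbs2b, spp1, fbln5, tns2a and TLN2 in entpd5a+ against col9a2+ cells were lost. Their differences there were -1.75, 5.62, 4.33, 4.65, 3.51, 2.33 and -2.00, in that order. So were those of COL2A1 (ENSDARG00000011407, -4.87) and COL9A1 (-6.69) in double-positive against col9a2+ cells. The calls of TLN2 (-1.94), COL5A1 (4.30) and FN1 (ENSDARG00000006526, -4.07) in entpd5a+ against double-positive cells were lost there as well.

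**Figure D4:**
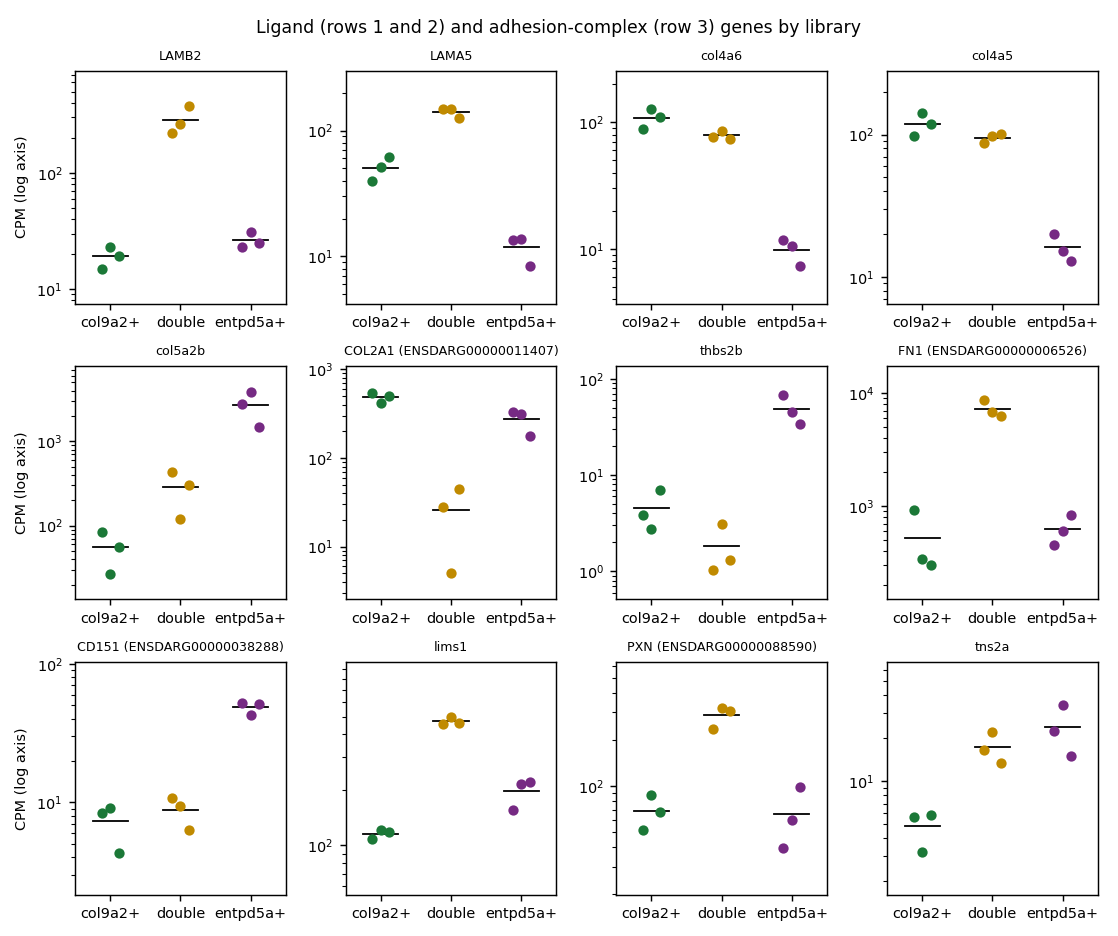
Level of 12 ligand and adhesion complex genes in CPM on log axes, each with its own range, with a point for each library and a line at the population mean ("double" is double-positive, n = 3 libraries a population). LAMB2, FN1 (ENSDARG00000006526), lims1 and PXN (ENSDARG00000088590) lie highest in double-positive libraries, while col5a2b, thbs2b and CD151 (ENSDARG00000038288) lie highest in entpd5a+ libraries.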

How the data were processed

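Per the labels, sheath cells were sorted by fluorescence, RNA was extracted with the RNeasy Micro Plus kit and ultra-low-input cDNA libraries were sequenced. The deposited tables give, for every Ensembl gene, unnormalized counts of reads. HISAT2, HTSeq and the build GRCz10 are named per the submitters' processing notes, and versions and strand setting are not given in the sources used here. Of 32266 IDs, 26433 (81.92%) had a name in the name table, and no row named no gene. The members and lists were chosen with earlier results of these data known.

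The counts went into edgeR 4.0.16 (R 4.3.3): filterByExpr (19039 genes), TMM factors, 1 coefficient per population over 9 libraries, robust quasi-likelihood F tests, Benjamini-Hochberg adjustment over all genes tested. Levels are CPM on TMM-scaled totals, with a prior count of 2 on the log2 scale, and the common dispersion came to 0.588. Each SE was calculated back from the test, as the size of the log2 difference over the square root of F. The 95% intervals use that SE and the total degrees of freedom of the test. Values per library are given for called subunits and the most abundant of each class, others where they bear on these, and for up to 3 called genes per ligand or adhesion list and comparison. ITGA5, ITGB3, itga2b, ITGB1 (ENSDARG00000071863) and COL2A1 (ENSDARG00000069093) were added after their values were seen. Same-numbered col9a2+ and double-positive libraries deviated together from their means (Pearson r over genes of 0.181, 0.219 and 0.332), so blocked values are given for that comparison. In both populations number 3 is the deep library with high hsp70l, so replicate number and depth cannot be told apart there. Alternatives were RLE factors, no filter, a mean of at least 10 CPM, DESeq2 1.42.0, each library left out, 6 libraries, the block and a depth term; 2 were chosen after seeing the data, a fit of only the 5 shallower libraries and the block in 6 libraries.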

Additional observations from a re-analysis of the deposited data

How the results depend on the processing

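Subunit calls numbered 6, 2 and 8 between entpd5a+ and col9a2+, double-positive and col9a2+, and entpd5a+ and double-positive cells, and calls over all genes 955, 674 and 1239. DESeq2 called 11, 5 and 11 subunits and 2158, 2025 and 2874 genes in the 3 comparisons. Its calls between entpd5a+ and double-positive cells were 1764 rising and 1110 falling, against 583 and 656 in edgeR. Leaving out each library gave 3 to 7, 1 to 3 and 2 to 8 subunits and 353 to 994, 242 to 787 and 525 to 1064 genes. The 5 shallower libraries alone called 0 of the subunits between entpd5a+ and col9a2+ cells and 2 between entpd5a+ and double-positive cells, with 202 and 455 genes. Only the 6 libraries compared gave 5 subunits and 758 genes between entpd5a+ and double-positive cells. With the replicate block 5 subunits and 1024 genes were called between double-positive and col9a2+ cells, and in 6 libraries 7 and 2228, while a depth term gave 4 and 1314. Same-numbered entpd5a+ libraries did not deviate together with the others throughout (r of -0.106 and -0.103 for number 2, deep in entpd5a+ and shallower in the others). In the entpd5a+ comparisons the block was not taken as a pairing. There it called 1378 genes against col9a2+ and 1684 against double-positive cells. No called difference of a subunit changed direction under any alternative. Not every subunit was followed through the alternatives, and among those followed the differences that did change direction were uncalled. With the shallower libraries alone, ITGA4 (-0.028), ITGB1 ENSDARG00000104484 (-0.0073) and ITGAV (-0.083) did so in entpd5a+ against col9a2+ cells. Against double-positive cells ITGB5 (-0.27) and ITGA5 (-0.35) did so in the same libraries. In double-positive against col9a2+ cells ITGAV turned to -0.67 without double-positive 3 (0.65 without double-positive 1), -0.024 with a depth term and -0.47 in the shallower libraries, and ITGA3 to -0.00062 with RLE factors, -0.00096 with DESeq2, -0.33 without col9a2+ 1 (0.36 without col9a2+ 3) and -0.28 without double-positive 2. The cause was not tested. A count of 0 allows up to 0.0343 to 0.0780 CPM, depending on the library. Groups of 3 were not searched for outlying libraries.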
